A study of Mus musculus and Homo sapiens with 90 samples.

Results

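The activity of candidate regulatory regions was compared between Hep3B and HepG2, a pair of human liver cancer cell lines, in a massively parallel reporter assay (MPRA). In this assay each region is cloned into a reporter plasmid, the pool of plasmids is put into cells, and RNA made from each region's reporter is counted against that region's plasmid DNA. The comparison used sub-library 2 of the plasmid collection, which was measured in both lines, and took every region listed in both lines' tables. These were 21622 regions, 19768 test regions and 1854 negative controls, out of 113094 regions in the 16 reporter tables of the series when each sub-library is counted apart. The series as a whole measured reporters in HepG2 and in mouse liver.

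The groups were Hep3B, genotype p53-null, with 2 RNA libraries and 1 DNA library, and HepG2, genotype p53-WT, with 3 RNA libraries and 1 DNA library. The labels name no treatment or time for either group, and all 7 libraries carry the same batch entry, which is the sub-library. The libraries titled Hep3B have HepG2 in their source and cell line entries, and the growth protocol describes only HepG2. They are called Hep3B here after their titles and genotype. Reporter tables hold no transcripts of the cells, so neither the line nor its p53 status could be checked against marker genes. The lines differ in origin as well as in p53, so p53 status and every other difference between them cannot be told apart. The labels do not say whether RNA libraries came from separate cultures or whether the DNA came from transfected cells or from the plasmid stock. Every p-value is against the spread between RNA libraries of the same line, pooled over both lines and in part over regions. A call in 1 line is thus not judged by the spread of that line alone. The DNA side of each line is 1 sample with no spread of its own.

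An enhancer or promoter drives transcription when the cell holds the proteins that bind it, so reporter activity of a fixed sequence reads out the factors of the host cell and not its chromatin. HepG2 and Hep3B are both used as models of hepatocytes. p53 is a transcription factor that is stabilised by DNA damage and activates genes of cell cycle arrest and apoptosis, and Hep3B is known for lacking it. Most test regions carry names that begin with EH38D, the form ENCODE gives to human sites of open chromatin, and 34 begin with EM10D, its form for mouse. The negative controls carry names of yeast open reading frames with a start and an end 190 bases apart, and come from 1580 such frames. The files pair no coordinate, gene or sequence with a region name, so regions are given by name only.

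Total counts were 17696987 and 9394679 in the Hep3B RNA libraries, 1700473 in Hep3B DNA, 3467554, 7276693 and 8202279 in the HepG2 RNA libraries, and 7569126 in HepG2 DNA. The median region had 402 and 202 counts in Hep3B RNA, 35 in Hep3B DNA, 78 to 194 in HepG2 RNA and 231 in HepG2 DNA. The Hep3B DNA library was the shallowest of the 7. Activity is given as the level, the log2 ratio of a region's RNA to its DNA after each library is scaled by TMM, edgeR's scaling of library sizes. A level of 0 means equal shares of RNA and DNA after this scaling, not of the raw counts. The TMM factors were 1.006 to 1.008 for HepG2 RNA but 1.269 for HepG2 DNA. In HepG2 a level of 0 is thus a smaller share of the RNA counts than of the DNA counts. In Hep3B the factors were closer, at 0.9005 and 0.9088 for RNA and 0.9431 for DNA. The median SD of the level between RNA libraries was 0.109 in Hep3B (n = 2) and 0.232 in HepG2 (n = 3). Because each line has 1 DNA library, an error in a region's DNA count shifts all RNA libraries of that line together and is not in these SDs. Replicate RNA libraries differed by more than sampling noise, with a chi-square of 3.611 to 9.763 per degree of freedom, so none was a repeat of another. The 2 DNA libraries, 1 from each line, differed by 20.14 per degree of freedom.

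Most regions kept a similar order of activity in both lines, and about 1 region in every 10 differed. Across the 21622 regions the levels of the lines correlated at r = 0.743, with a slope of 0.788 for Hep3B on HepG2. This describes regions that share neither RNA nor DNA libraries between the lines, and regions are not replicates. The difference in level, Hep3B minus HepG2, was tested for each region in edgeR's quasi-likelihood model as the interaction of molecule and line, with Benjamini-Hochberg adjustment over all regions and a threshold of 0.05. It passed for 2311 regions (10.7%), of which 1101 (5.09%) were higher in Hep3B and 1210 (5.6%) higher in HepG2. Among the test regions, 1089 (5.51%) were higher in Hep3B and 1175 (5.94%) in HepG2. Among the negative controls 47 (2.54%) were called, 12 (0.647%) higher in Hep3B and 35 (1.89%) higher in HepG2. All 2311 called regions had RNA libraries of the lines that did not overlap in level, but so did 13807 of all regions (63.9%), so a lack of overlap alone says little. The split between directions moves with scaling. With total counts in place of TMM, 1785 test regions were higher in Hep3B and 817 in HepG2. The number called also rests on single libraries: without HepG2 replicate 2 it fell to 1348 in all and to 700 higher in HepG2, and the number higher in Hep3B fell to 703 without Hep3B replicate 2 and to 648 without HepG2 replicate 2.

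**Figure D1:**
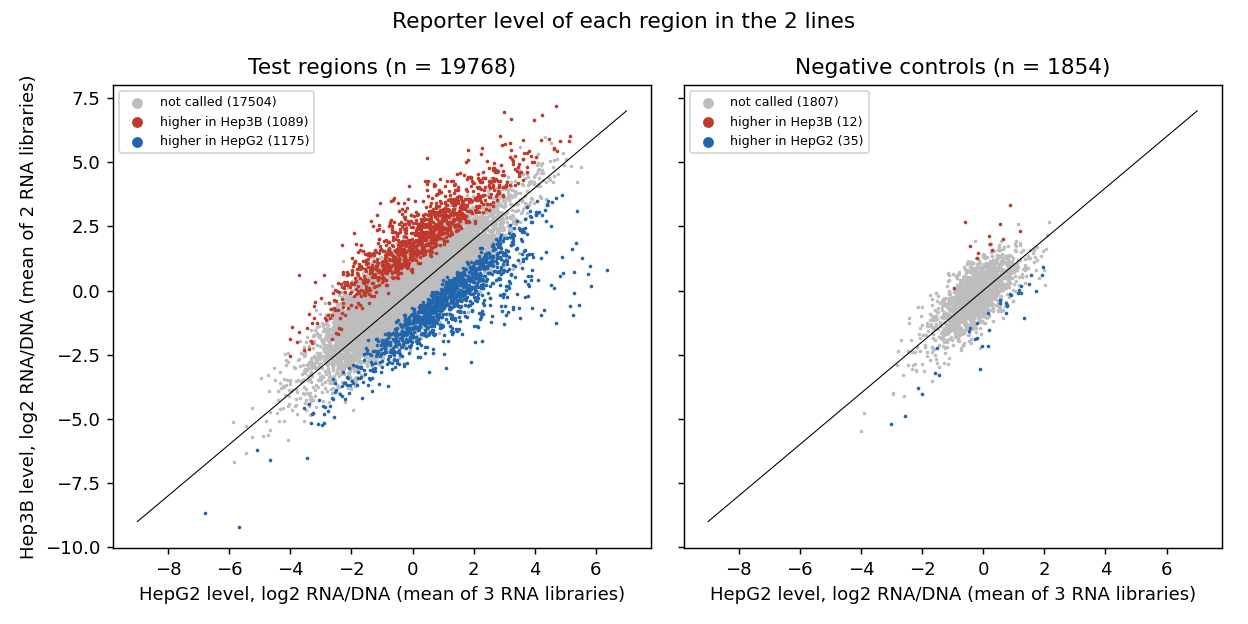
Level of each region in HepG2 (x axis) and Hep3B (y axis), as log2 RNA/DNA averaged over RNA libraries, for test regions on the left and negative controls on the right. Red and blue points are regions called higher in Hep3B and in HepG2 (1089 and 1175 test regions, 12 and 35 controls), grey points were not called, and the line marks equal levels.

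Large differences were few. The median difference was 0.13 over test regions and 0.04 over negative controls, and the median over all regions was 0.12. That median moved to -0.01 with DESeq2's size factors and to 0.39 with total counts, so small differences have no firm direction. Differences of the test regions ran from -6.20 to 4.70, against -2.88 to 3.28 for the controls. Of the 19768 test regions, 435 were called at least 4-fold higher in Hep3B and 259 in HepG2. Of the 1854 controls, 4 and 7 were. At 16-fold or more, 10 test regions were higher in Hep3B and 25 in HepG2, with no control in either direction. The controls are far fewer than the test regions, so their absence at this size says little. The middle 95% of the controls spanned -1.28 to 1.35. Of the test regions, 1604 (8.11%) lay above this span and 1092 (5.52%) below it. The called test regions beyond it were 855 of the 1089 higher in Hep3B and 754 of the 1175 higher in HepG2.

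**Figure D2:**
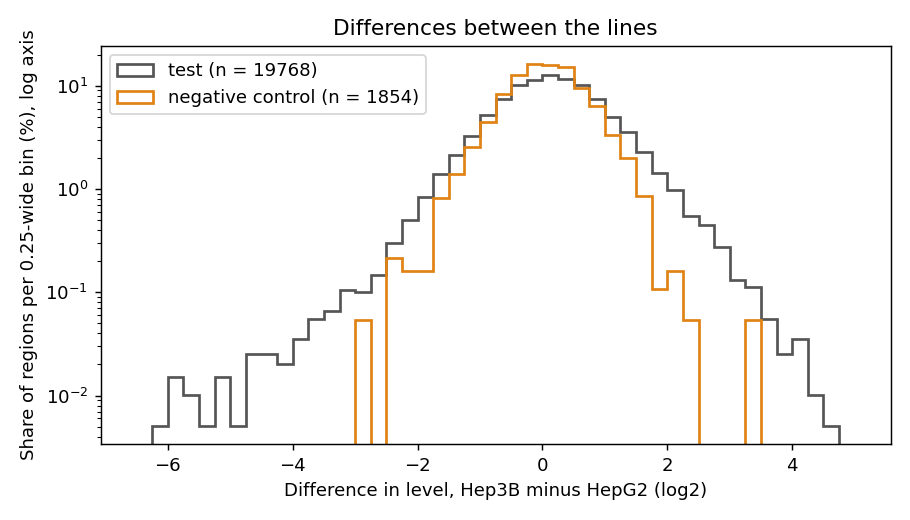
Difference in level, Hep3B minus HepG2 (x axis, log2), as the share of test regions (grey, n = 19768) and negative controls (orange, n = 1854) in each bin, on a log y axis. The test regions reach from -6.20 to 4.70 and the controls from -2.88 to 3.28.

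Activity in each line was called in the same fit, as active where the level was above 0 and as low where it was below 0. In Hep3B, 4394 regions (20.3%) were active and 3010 (13.9%) low. In HepG2, 5211 (24.1%) were active and 4488 (20.8%) low. These calls depend on where scaling puts 0: with total counts in place of TMM, 3798 were active and 7063 low in HepG2. Of the negative controls, 137 (7.39%) were active in Hep3B and 152 (8.2%) in HepG2, while 196 (10.6%) were low in Hep3B and 226 (12.2%) in HepG2. Among test regions 3145 were active in both lines, and 718 of these differed between them, 472 stronger in Hep3B and 246 stronger in HepG2. Of all 19768 test regions, 2264 (11.5%) were called different. The 472 had a median level of 3.25 in Hep3B and 1.45 in HepG2. The 246 had medians of 1.23 in Hep3B and 2.73 in HepG2. Of the regions called different, 439 were active in Hep3B and not called active in HepG2, and 547 were active in HepG2 and not called active in Hep3B. A further 2040 test regions were called active in 1 line only while the difference itself was not called, so an active call in a single line does not show a difference.

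Full switches are regions active in one line, low in the other and called different. Of the 19768 test regions, 103 switched in favour of Hep3B and 161 in favour of HepG2. Of the 1854 controls, 0 and 5 did. The 103 had median levels of 1.22 in Hep3B and -0.997 in HepG2. The 161 had medians of -0.95 in Hep3B and 0.89 in HepG2. With at least 50 DNA counts in each line, 56 and 152 of them remained, because fewer of the regions in favour of Hep3B had deep DNA counts. Low in both lines were 1909 test regions, of which 27 were called higher in Hep3B and 165 higher in HepG2. Over all 19768 test regions these shares were 5.51% and 5.94%, and 11.5% were called in either direction.

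Among test regions with at least 50 DNA counts in each line, the largest differences in favour of Hep3B were in regions of weak or low activity in HepG2. A ranking by difference itself favours low levels in the other line. Some of the 10 test regions at least 16-fold higher in Hep3B had fewer DNA counts and are left out here. The 10 largest that met the DNA minimum had mean levels of 0.59 to 5.18 in Hep3B and -3.70 to 0.90 in HepG2. Of the 10, 9 were called active in Hep3B, and in HepG2 6 were low, 3 active and 1 neither. All 10 were also called higher in Hep3B when the RNA libraries alone were compared. That test called 33.2% of all regions and reuses the RNA counts that chose these 10, so it is not a separate check. EH38D5813833sub2 had levels of 5.14 and 5.22 in the Hep3B libraries and of 0.44, 0.69 and 0.31 in the HepG2 libraries. Its difference was 4.70 ± 0.24 (SE; edgeR's quasi-likelihood test, adjusted p = 4.32e-05), and its counts were 19326 and 11006 in Hep3B RNA over 54 in Hep3B DNA. The Hep3B libraries were thus far above every HepG2 library, on a DNA count of only 54. EH38D3494069sub2 had levels of 4.10 and 4.17 in Hep3B and 0.49, 0.56 and 0.38 in HepG2, a difference of 3.67 ± 0.19 (SE; edgeR's test, adjusted p = 3.44e-05). EH38D5668656sub2 had 4.30 and 4.43 in Hep3B and 1.04, 0.75 and 0.91 in HepG2, a difference of 3.47 ± 0.20 (SE; edgeR's test, adjusted p = 7.54e-05). Both were called active in both lines.

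Other regions in favour of Hep3B went from low to active. EH38D5749218sub2 had levels of 3.47 and 3.55 in Hep3B and -0.40, -0.59 and -0.93 in HepG2, with a difference of 4.16 ± 0.28 (SE; edgeR's test, adjusted p = 0.000139). EH38D5713070sub2 had 1.78 and 1.76 in Hep3B and -1.15, -1.67 and -2.21 in HepG2, with a difference of 3.46 ± 0.48 (SE; edgeR's test, adjusted p = 0.0032). EH38D3609855sub2 had 1.60 and 1.59 in Hep3B and -1.44, -1.83 and -1.92 in HepG2, with a difference of 3.35 ± 0.28 (SE; edgeR's test, adjusted p = 0.000308). Among switches with at least 50 DNA counts in each line, these are the 3 largest towards Hep3B. In each, the Hep3B libraries lay within 0.1 of one another while the HepG2 libraries spread more widely. EH38D3591359sub2 had the second largest difference of these 10, 4.32 ± 0.44 (SE; edgeR's test, adjusted p = 0.000762), but was not called active in Hep3B. Its levels were 0.99 and 0.19 in Hep3B and -3.88, -3.81 and -3.42 in HepG2, so here the Hep3B libraries differed by more than the HepG2 ones. The remaining 3 were EH38D5632867sub2, EH38D5533488sub2 and EH38D5548942sub2, with differences of 3.37, 3.30 and 3.19.

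The largest differences in favour of HepG2 were larger, and included regions among the strongest in HepG2 that were near or below 0 in Hep3B. The corresponding 10 had mean levels of 1.92 to 5.85 in HepG2 and -2.77 to 0.67 in Hep3B. All 10 were active in HepG2, and in Hep3B 7 were low, 2 active and 1 neither. EH38D5784227sub2 had levels of 5.28, 5.23 and 5.21 in HepG2 and of -0.93 and -0.99 in Hep3B. Its difference of -6.20 ± 0.12 (SE; edgeR's test, adjusted p = 3.69e-07) was the largest in either direction, and it rested on 293 and 1134 DNA counts in Hep3B and HepG2. EH38D5782651sub2 had 5.90, 5.82 and 5.83 in HepG2 and 0.23 and 0.12 in Hep3B, a difference of -5.66 ± 0.18 (SE; edgeR's test, adjusted p = 7.89e-06). The libraries of a line lay close together in both regions, and the lines were more than 5 log2 units apart.

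EH38D5778655sub2 and EH38D5750020sub2 were active in both lines at very different strength. EH38D5778655sub2 had levels of 5.83, 5.68 and 5.68 in HepG2 and 0.61 and 0.68 in Hep3B, a difference of -5.08 ± 0.17 (SE; edgeR's test, adjusted p = 1.04e-05). EH38D5750020sub2 had 4.96, 4.92 and 4.92 in HepG2 and 0.63 and 0.71 in Hep3B, a difference of -4.26 ± 0.16 (SE; edgeR's test, adjusted p = 1.16e-05). The 3 largest switches towards HepG2 with at least 50 DNA counts in each line were EH38D5784227sub2, EH38D3585405sub2 and EH38D3696897sub2. EH38D3585405sub2 had 4.33, 4.77 and 4.95 in HepG2 and -0.93 and -1.59 in Hep3B, a difference of -5.90 ± 0.51 (SE; edgeR's test, adjusted p = 0.000355). EH38D3696897sub2 had 1.69, 2.06 and 2.02 in HepG2 and -2.52 and -3.02 in Hep3B, a difference of -4.68 ± 0.31 (SE; edgeR's test, adjusted p = 0.000137). In EH38D3696897sub2 the DNA moved too: its share of the DNA was higher in Hep3B than in HepG2 by 1.53 on the log2 scale, and the RNA alone differed by -3.20. The remaining 4, EH38D3706539sub2, EH38D3637140sub2, EH38D3924544sub2 and EH38D5674158sub2, had differences of -4.61, -4.27, -4.25 and -4.04. All 10 were also called higher in HepG2 from the RNA libraries alone, a test that called 33.2% of all regions. It too reuses the RNA counts that chose these 10.

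**Figure D3:**
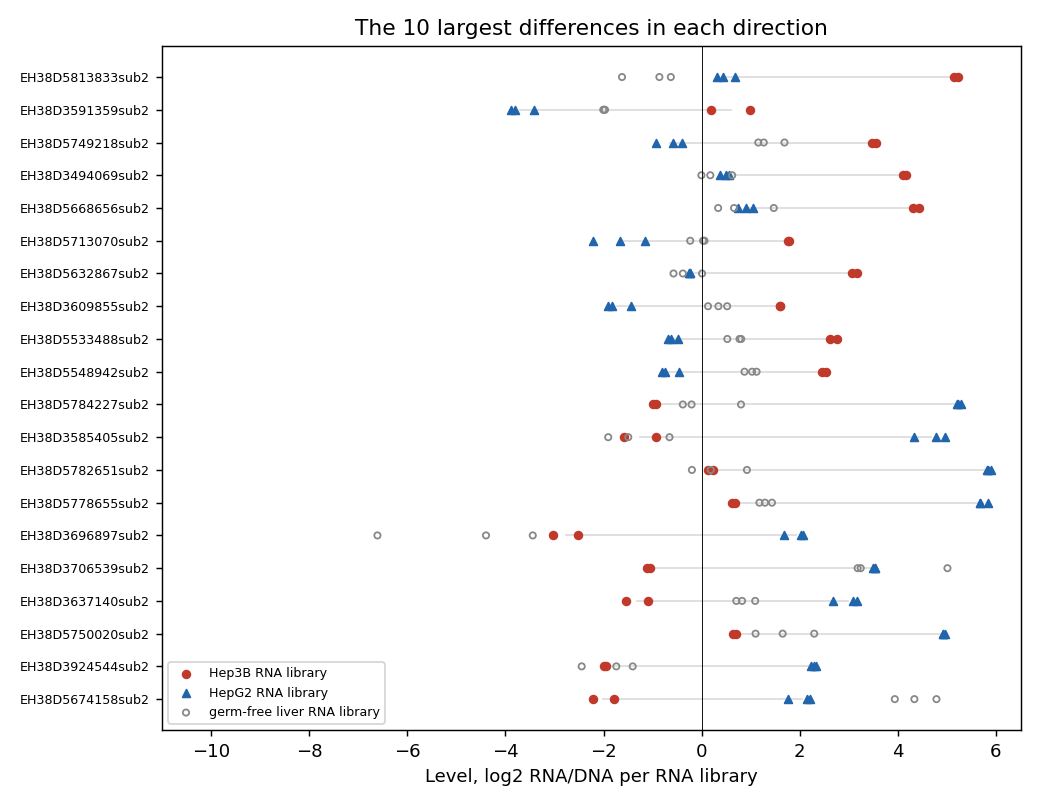
Level (x axis, log2 RNA/DNA) in each Hep3B (red), HepG2 (blue triangle) and germ-free mouse liver (open grey) RNA library for the 10 largest differences in each direction, with 1 region a row and a line joining the means of the 2 cell lines. The 20 regions are the largest differences among called test regions with at least 50 DNA counts in each line. They were also chosen for Hep3B and HepG2 libraries that do not overlap, so that trait was fixed by the choice.

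The regions most active in both lines, ranked by the weaker line among those with at least 50 DNA counts in each, differed little by comparison. EH38D5523586sub2 ranked first, with levels of 5.98 and 6.09 in Hep3B and 5.22, 5.13 and 5.11 in HepG2. Its difference of 0.89 ± 0.14 (SE; edgeR's test, adjusted p = 0.0054) passed, and so did those of EH38D5477710sub2 at 0.73 ± 0.12 (SE; adjusted p = 0.0079) and EH38D5522576sub2 at 1.00 ± 0.15 (SE; adjusted p = 0.00421). EH38D5457368sub2, at 4.74 and 4.87 in Hep3B and 5.63, 5.48 and 5.40 in HepG2, had a difference of -0.69 ± 0.19 (SE; adjusted p = 0.0572) and was not called. All 3 calls were lost when the libraries were scaled on the negative controls (edgeR's test, adjusted p = 0.408, 0.538 and 0.316). The differences themselves hardly moved there, at 0.885, 0.730 and 0.997, so the p-values changed and not the sizes. A fit with a term for the replicate number lost all 3 calls as well (edgeR's test, adjusted p = 0.0777, 0.126 and 0.0569). The calls of EH38D5523586sub2 and EH38D5477710sub2 were also lost with DESeq2 (adjusted p = 0.0799 and 0.19) and without Hep3B replicate 2 (adjusted p = 0.0588 and 0.131). EH38D5477710sub2 lost its call without HepG2 replicate 2 as well (adjusted p = 0.0505) and with edgeR's RLE factors (adjusted p = 0.0796). EH38D5457368sub2 was called without Hep3B replicate 2 (adjusted p = 0.0443), without HepG2 replicate 1 (adjusted p = 0.0455), from RNA alone (adjusted p = 0.00721) and over the regions of the germ-free liver table (adjusted p = 0.0432).

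At the other end, EH38D5576102sub2 ranked lowest by the stronger line, at -8.74 and -8.60 in Hep3B and -6.83, -6.62 and -6.90 in HepG2. It had 4549 and 12694 DNA counts in Hep3B and HepG2 and only 63 to 107 RNA counts in Hep3B and 40 to 98 in HepG2. Its difference of -1.90 ± 0.17 (SE; edgeR's test, adjusted p = 0.000434) was -0.82 in RNA alone (adjusted p = 0.0527), and the rest came from the DNA libraries. EH38D3809560sub2 was at -7.43 and -5.92 in Hep3B and -5.37, -6.57 and -5.58 in HepG2, where the libraries of the lines overlap. It was not called (difference -0.73 ± 0.73 (SE), adjusted p = 0.622), but it was called at -1.75 without Hep3B replicate 2 (adjusted p = 0.0134). Its sign turned in RNA alone, at 0.48 (adjusted p = 0.444).

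The 2 directions were built differently from RNA and DNA. In the 1089 test regions higher in Hep3B, the median difference in RNA alone was 1.67 and that in DNA was -0.09. Of them 1064 (97.7%) were called the same way when only the RNA libraries were compared, a test that called 7189 of all regions (33.2%). In the 1175 higher in HepG2, the median difference in RNA was -0.92 and that in DNA, Hep3B minus HepG2, was 0.60. Of them 927 (78.9%) were called the same way from RNA alone and 16 were called the opposite way. These regions also had deeper DNA, with a median of 128 counts in Hep3B against 39 in the regions higher in Hep3B.

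Calls in favour of HepG2 were concentrated in abundant plasmids. To order regions by an abundance that neither line's DNA library had set, the mean DNA count of the same region in germ-free mouse liver, which received the same sub-library, was used. It was given for 20536 of the regions, and correlated at r = 0.896 with Hep3B DNA and r = 0.938 with HepG2 DNA. The regions were split by it into 10 bins of equal number. From the lowest to the highest bin, the share of test regions higher in HepG2 went from 1.14% to 28.1%, the last being 557 of 1979 regions. The share higher in Hep3B stayed between 3.21% and 6.98%. The median difference of test regions was 0.30 in the second bin and -0.45 in the highest. In the highest bin the median DNA difference was 0.41 and the median RNA difference -0.09, so the shift there was mostly in the DNA. The negative controls followed the same course, with a median difference of 0.17 in the second bin and -0.44 in the highest, and 20 of their 35 calls in favour of HepG2 were in the highest bin. What made the DNA share of abundant plasmids higher in Hep3B was not tested. With 1 DNA library per line, the state of that library and the line cannot be told apart.

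A fit that removed the trend of each library on this abundance, added after the pattern was seen, called 1122 test regions higher in Hep3B and 890 higher in HepG2. Of the regions called before, 923 of 1078 (85.6%) in favour of Hep3B and 803 of 1161 (69.2%) in favour of HepG2 were called again the same way. In the highest bin the shares became 14.1% and 13.5%. The 20 regions named above, the largest differences with at least 50 DNA counts in each line, were all called in the same direction as before. Their differences were 3.28 to 5.20 and -6.10 to -3.54. The fit reuses the counts that made the first calls and chose these 20 regions, so it is not a separate check. EH38D5576102sub2 was no longer called, at -0.60 (adjusted p = 0.0692).

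**Figure D4:**
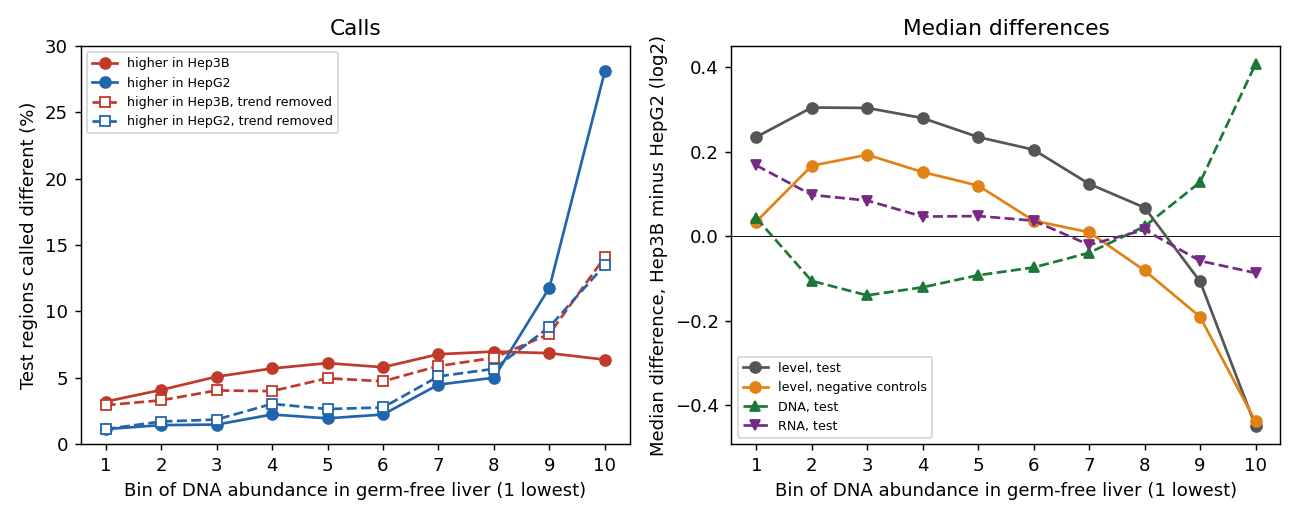
Left, percent of test regions called higher in Hep3B (red) or HepG2 (blue) in each of 10 bins of DNA abundance in germ-free liver (x axis), before (filled) and after (open, dashed) removal of the abundance trend. Right, median difference, Hep3B minus HepG2 (log2), in level for test regions and negative controls and in DNA and RNA alone for test regions; in the highest bin the levels are at -0.45 and -0.44 and the DNA is at 0.41.

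The called negative controls could be compared with HepG2 in other sub-libraries, where the same fragments were measured in separate tables. Levels were centred on the median of the controls in each table. All 12 controls higher in Hep3B were above their HepG2 level in each of sub-libraries 1, 3, 4 and 5. Of the 35 higher in HepG2, 30 were measured in all 4 and Hep3B was below HepG2 in each. Among controls not called, Hep3B was above all 4 in 26.7% and below all 4 in 22.7% of the 1247 measured in all. The median centred difference of the 12 was 1.56 within sub-library 2 and 1.62 against the others, and that of the 35 was -1.30 and -1.11. These differences were about as large against HepG2 tables that the test did not use. The same Hep3B values had chosen these controls, and the controls not called were chosen for the lack of a call. HepG2 control levels also correlated at r = 0.699 to 0.776 between sub-library 2 and the others. The choice thus favours such agreement. Hep3B was measured in sub-library 2 only, so its values could not be compared with others.

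Single controls were as clear as many test regions. YAL060W_109_298sub2 had levels of 2.63 and 2.75 in Hep3B and of -0.91, -0.53 and -0.36 in HepG2. Its difference was 3.28 ± 0.40 (SE; edgeR's test, adjusted p = 0.00169), with only 21 DNA counts in Hep3B. YER018C_360_549sub2 and YGL063W_887_1076sub2 followed at 2.44 ± 0.50 and 2.19 ± 0.28 (SE), the first with 14 DNA counts in Hep3B and no longer called without HepG2 replicate 2 (adjusted p = 0.0701). In the other direction, YNL279W_451_640sub2 had -2.72 and -3.39 in Hep3B and -0.12, -0.13 and -0.11 in HepG2. Its difference was -2.88 ± 0.35 (SE; edgeR's test, adjusted p = 0.00171), of which RNA alone gave -1.10 and DNA 1.83. YKR042W_237_426sub2 differed by -2.39 ± 0.14 and YJR085C_50_239sub2 by -2.36 ± 0.47 (SE). In both the DNA difference, 1.64 and 1.84, was larger than the RNA difference, -0.79 and -0.57, and YJR085C_50_239sub2 was not called from RNA alone (adjusted p = 0.127) or without HepG2 replicate 2 (adjusted p = 0.05001).

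**Figure D5:**
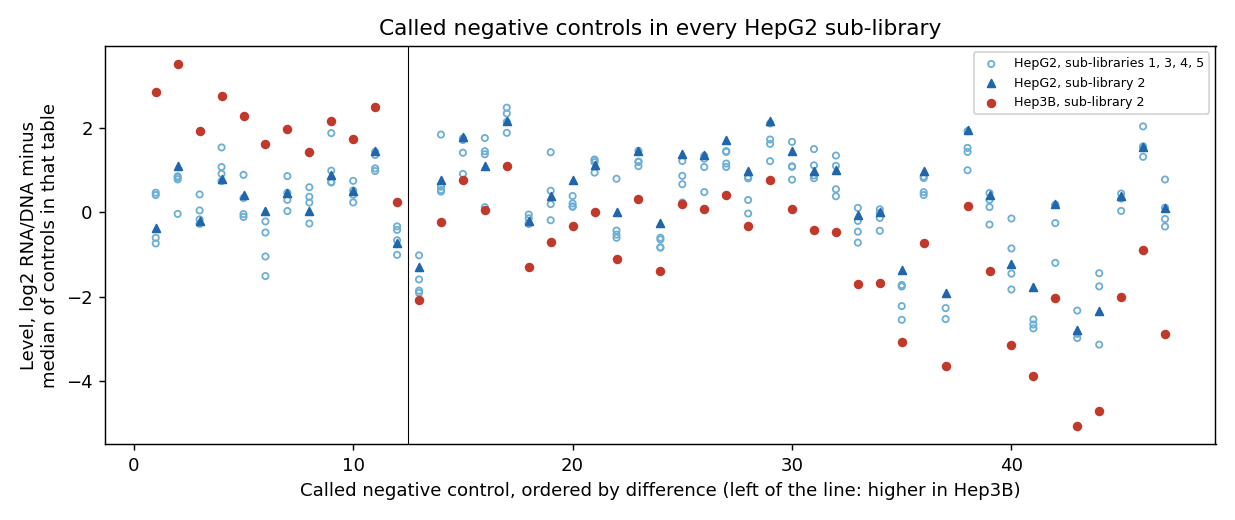
Level of the 47 called negative controls, as log2 RNA/DNA minus the median of the controls in the same table (y axis), in Hep3B (red), HepG2 sub-library 2 (blue triangle) and HepG2 sub-libraries 1, 3, 4 and 5 (open), ordered by the difference. The 12 controls left of the line have Hep3B above every HepG2 table, and those right of it have Hep3B below every HepG2 table that lists them.

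The regions that differ were also looked up in mouse liver, which received the same sub-library in conventional animals (2 RNA libraries) and germ-free animals (3 RNA libraries). The liver libraries were scaled apart from the cell lines, so medians are read only for the order of sets within a library. Liver levels of single regions, given further below, are on their own scale. In germ-free liver the test regions higher in Hep3B had median levels of 0.52, 0.35 and 0.34 in the 3 libraries. Those higher in HepG2 had 0.14, -0.09 and 0.03, and those not called had -0.03, 0.02 and 0.02. In conventional liver the medians were 0.49 and 0.37 for regions higher in Hep3B and -0.53 and -0.36 for regions higher in HepG2. Regions not called had 0.02 and -0.38 there, so the set higher in HepG2 was below them in the first library and level with them in the second. The set higher in Hep3B was thus above the set higher in HepG2 in all 5 liver libraries. The conventional liver table listed 32.3% of the regions higher in Hep3B, 52.9% of those higher in HepG2 and 19% of those not called. These are sets of unequal DNA abundance and activity, and the part of either in this order was not tested.

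Test regions active in both lines had medians of 1.00, 0.70 and 0.69 in the libraries of germ-free animals and 0.68 and 0.82 in those of conventional ones. Regions low in both lines had medians of -0.97, -1.01 and -0.98, and of -2.52 and -2.08. Called regions active in Hep3B but not in HepG2 had 0.25, 0.21 and 0.19 in germ-free liver, and those active in HepG2 but not in Hep3B had 0.20, 0.01 and 0.10 in the same libraries. In conventional liver the first had -0.20 and -0.87 and the second had -0.28 and -0.34. Regions active in a single line thus lay between the shared classes in all 5 libraries.

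Single regions did not follow one rule. EH38D5674158sub2, higher in HepG2, had levels of 4.34, 4.79 and 3.94 in germ-free liver, with 1.43 and 2.37 for conventional animals. In Hep3B, on a separate scale, it had -1.80 and -2.22. EH38D3706539sub2, also higher in HepG2, had 5.01, 3.18 and 3.24 in germ-free and 2.04 and 3.78 in conventional liver. EH38D5782651sub2 had 3.81 and 3.93 in conventional liver but 0.92, -0.20 and 0.19 in germ-free liver. Of the 10 largest differences in favour of HepG2 with at least 50 DNA counts in each line, 9 were listed in conventional liver. In 7 of these the level was above 0 in both libraries. Of the 10 in favour of Hep3B, 4 were listed there and none was above 0 in both. Over all 4302 test regions listed in conventional liver, 33.8% were above 0 in both, but these are regions of any activity in the lines. The full sets went the other way in conventional liver. Regions higher in Hep3B had medians of 0.49 and 0.37 there, and regions higher in HepG2 had -0.53 and -0.36. In germ-free liver, where all 20 were listed, 5 of the 10 in each direction were above 0 in every library, against 40.6% of all test regions listed, so the directions did not part there. EH38D5749218sub2, one of the 4 in favour of Hep3B listed in conventional liver, had 1.69, 1.27 and 1.16 in germ-free liver but -0.34 and -1.49 for conventional animals.

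Of the 34 regions with mouse names, 3 were called, a share near the 11.5% of all test regions. EM10D2895959sub2 was higher in Hep3B, with mean levels of 1.89 ± 0.06 (SD, n = 2) and 0.69 ± 0.10 (SD, n = 3) in Hep3B and HepG2, by 1.21 ± 0.18 (SE; edgeR's test, adjusted p = 0.00385). EM10D2104529sub2 was higher in HepG2, at 1.76 ± 0.11 (SD, n = 2) against 3.21 ± 0.10 (SD, n = 3), by -1.45 ± 0.22 (SE; edgeR's test, adjusted p = 0.00505). EM10D2546616sub2 was also higher in HepG2, at -0.03 ± 0.07 (SD, n = 2) against 1.36 ± 0.25 (SD, n = 3), by -1.39 ± 0.29 (SE; edgeR's test, adjusted p = 0.0198). The median difference of the 34 was -0.18, against 0.13 over all test regions.

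Regions in a single table could not be tested. The Hep3B table alone listed 983 regions, of which 944 were test regions, with a median Hep3B level of -1.44 and a median of 20 DNA counts against 34 over that whole table. The HepG2 table alone listed 837, of which 731 were test regions, with a median HepG2 level of 0.00 and a median of 81 DNA counts against 224. The smallest RNA count in either table was 10, so regions with less RNA are not listed and regions silent in one line could not be counted.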

How the data were processed

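MPRA counts of sub-library 2 were analysed. Values in the deposited files are raw counts, 1 whole number for a region in a library, which the authors made with BWA and hg38, per the submitters' processing notes, which also name DESeq2 1.42.1 and edgeR 4.0.16. The protocols name a primer with a molecular identifier, but whether counts were collapsed is not stated, so precision from counts covers counting error only. Computations used R 4.3.3, edgeR 4.0.16, DESeq2 1.42.0, Python 3.11.15 and matplotlib 3.10.9. One robust quasi-likelihood model with 4 group means (line by molecule) was fitted to the 7 libraries with TMM factors. It was also run on simulated data in which both lines had the same DNA profile and all regions a common spread. The real DNA libraries differed between the lines, so that run checks the computation and not the calls made here. A mean DNA count of at least 10 was asked for, which all 21622 regions met. Levels per library used a pseudocount of 0.5 counts. The SE is the absolute log2 difference over the square root of F. Named regions were, in each direction, the 10 largest called differences and 3 largest switches, and the 4 highest and 2 lowest in both lines. All of these were test regions with at least 50 DNA counts in each line. The 10 in each direction were also required to have RNA libraries of the lines that did not overlap in level. The 3 largest control differences in each direction and 4 regions from an earlier description of these data were added. The members, the lists and the tests were chosen with earlier results of these data known. Alternatives were other scalings, DESeq2, DNA minimums, a replicate block, single libraries left out, RNA alone and, added later, removal of the DNA abundance trend by lowess (span 0.3).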

Additional observations from a re-analysis of the deposited data

Results flagged for a closer look

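The interaction of molecule and line, tested with edgeR, called 2311 regions as different between Hep3B and HepG2, and the named regions among them are given here by their log2 difference, Hep3B minus HepG2.

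Higher in Hep3B were EH38D5813833sub2 at 4.70, EH38D3591359sub2 at 4.32, EH38D5749218sub2 at 4.16, EH38D3494069sub2 at 3.67, EH38D5668656sub2 at 3.47, EH38D5713070sub2 at 3.46, EH38D5632867sub2 at 3.37, EH38D3609855sub2 at 3.35, EH38D5533488sub2 at 3.30 and EH38D5548942sub2 at 3.19. Higher in HepG2 were EH38D5784227sub2 at -6.20, EH38D3585405sub2 at -5.90, EH38D5782651sub2 at -5.66, EH38D5778655sub2 at -5.08, EH38D3696897sub2 at -4.68, EH38D3706539sub2 at -4.61, EH38D3637140sub2 at -4.27, EH38D5750020sub2 at -4.26, EH38D3924544sub2 at -4.25 and EH38D5674158sub2 at -4.04. Of the regions high in both lines, EH38D5523586sub2 differed by 0.888, EH38D5477710sub2 by 0.732 and EH38D5522576sub2 by 0.998. EH38D5576102sub2, low in both, differed by -1.90.

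The negative controls YAL060W_109_298sub2, YER018C_360_549sub2 and YGL063W_887_1076sub2 differed by 3.28, 2.44 and 2.19. YNL279W_451_640sub2, YKR042W_237_426sub2 and YJR085C_50_239sub2 differed by -2.88, -2.39 and -2.36.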

How the results depend on the processing

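The number of regions called different, 2311 with TMM, was 1374 when scaled on the negative controls, 1507 with at least 50 DNA counts in each line, 945 with a replicate block and 7189 from RNA alone. The number higher in Hep3B, 1101, was 1817 with total counts, 431 with the block and 3856 from RNA alone. The number higher in HepG2, 1210, was 624 when scaled on the controls, 665 with at least 50 DNA counts, 514 with the block and 3333 from RNA alone. The 47 controls became 26, 13 and 214 when scaled on the controls, with the block and from RNA alone. With at least 50 DNA counts, 7024 regions were tested, of which 2101 were active and 1560 low in Hep3B, and 2060 active and 2048 low in HepG2. On these regions that fit called 830 test regions higher in Hep3B and 641 in HepG2, where the fit to all regions had called 397 and 973, so the balance turned. With the block, 3469 were active in HepG2, 1727 low in Hep3B and 1840 low in HepG2. With total counts, 7063 were low in HepG2. Leaving out 1 RNA library at a time gave 1348 to 3039 regions different, 648 to 1585 higher in Hep3B, 700 to 1454 higher in HepG2, and 23 to 76 controls, the last without HepG2 replicate 1 and the lowest without HepG2 replicate 2. The median difference, 0.1173, was 0.3898 with total counts, -0.007132 with edgeR's RLE factors, -0.008674 with DESeq2, -0.01167 from RNA alone and -0.01039 over the regions of the germ-free liver table alone. Test regions higher in Hep3B and in HepG2 were 923 and 1367 with RLE, 929 and 1447 with DESeq2, 744 and 604 when scaled on the controls, and 893 and 1366 over the germ-free liver regions before the trend was removed. Of the 32 named regions, EH38D3809560sub2, which was not called, changed sign, from -0.7318 to 0.4761 from RNA alone and to 0.3061 with the trend removed, and no other did. Same-numbered libraries of the lines deviated from their means with correlations of -0.407 and -0.216. With 2 Hep3B libraries, the deviations of one mirror those of the other, so these values cannot tell whether the numbers pair the lines. The labels do not say either. The block took EH38D5523586sub2, EH38D5477710sub2, EH38D5522576sub2 and YJR085C_50_239sub2 out of the calls (edgeR's test, adjusted p = 0.0777, 0.126, 0.0569 and 0.105). Where counts changed for reasons other than fewer regions or libraries, the cause was not tested. Whether the depth of Hep3B DNA, with a median of 35 counts, limits the calls was not tested.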

Other observations

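Regions whose names carry consecutive numbers, 2408 pairs of test regions, had differences that correlated at r = 0.03 across pairs, with levels correlating at r = 0.06 in Hep3B and 0.03 in HepG2. Both members were called in 34 pairs, 17 of them in the same direction. Of single test regions 11.5% were called, which is not a rate for pairs, and no background rate for pairs was computed. The files do not say how numbers relate to position. The controls lay below the test regions by 0.05 and 0.44 in the median level of the Hep3B RNA libraries and by 0.31, 0.12 and 0.08 in those of HepG2.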
